A study of Macaca mulatta with 6 samples.

Results

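The genes described here are 10 genes of the retinal vessel wall and its barrier: PECAM1, CDH5, VWF, CLDN5, OCLN, TJP1, ICAM1, VCAM1, SELE and SLC2A1. They were taken by name, as a set of known roles, and the rule that picks them uses no measured value, although earlier results of these data were known when the set was drawn up. All 10 were found in the platform annotation, where they have 16 probe sets, of 52024 probe sets and 14132 named genes in all. RNA came from the temporal retina of 3 male rhesus macaques aged 8 to 10 years, dissected without the retinal pigment epithelium (RPE). In each monkey the intraorbital optic nerve of 1 side was irradiated by gamma knife surgery with a prescribed dose of 15 Gy, and both retinas were taken 24 h later. The 3 retinas on the irradiated side are called treated and the 3 contralateral retinas control. The control retinas were not free of radiation, since the eyeball received about 1 Gy on the control side and 3 Gy on the treated side by the study's account, and they belong to animals with an injured nerve. Each retina was hybridized alone to a 1-color Affymetrix Rhesus Macaque Genome Array, and all levels below are log2 values of the MAS 5.0 signal, a summary of the probes of 1 probe set. A treated minus control difference of 1 on this scale is a doubling. The 3 retinas of a group come from different animals, and their number limits the precision of every value.

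The vessels of the inner retina are lined by endothelial cells that are held together by tight and adherens junctions, and this lining forms the inner blood-retina barrier. PECAM1, CDH5 and VWF are used to recognise endothelium, CLDN5, OCLN and TJP1 build or anchor tight junctions, and SLC2A1 carries glucose across the barrier. ICAM1, VCAM1 and SELE are surface molecules that endothelial cells can put up after cytokine stimulation and that bind leukocytes. Several of these genes are not made by endothelium alone: TJP1 and OCLN also serve epithelia such as the RPE, and SLC2A1 is used by the RPE, glia and red blood cells of primates. In a whole retina, fewer endothelial cells and less RNA per endothelial cell cannot be told apart.

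Of the 16 probe sets, 0 passed an adjusted p of 0.05 for treated against control in the paired limma model, adjusted over all 52024 probe sets by the Benjamini-Hochberg method. In the same fit 0.11% of all probe sets were higher and 0.00192% lower at that threshold. At an unadjusted p under 0.05, 0 of the 16 were higher and 1 was lower, that of CLDN5, where 2.97% of all probe sets were higher and 3.77% lower. The paired t-test of the methods gave 0 of the 16 at an unadjusted p under 0.05 and 0 after adjustment. The differences lay above 0 for 7 probe sets and below 0 for 9, with a median of −0.039, and the median over all probe sets was −0.038. Treated and control retinas overlapped for all 16, while 6.63% of all probe sets had groups that did not overlap. The difference had the same sign in 3 of 3 pairs for 7 of the 16, higher for 3 and lower for 4, beside 29.1% of all probe sets. For 8 of the 16 the 95% interval of the difference lay within 1 log2 unit of 0 on both sides, while the interval held a doubling for 5 and a halving of the signal for 6, some of them holding both.

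**Figure D1:**
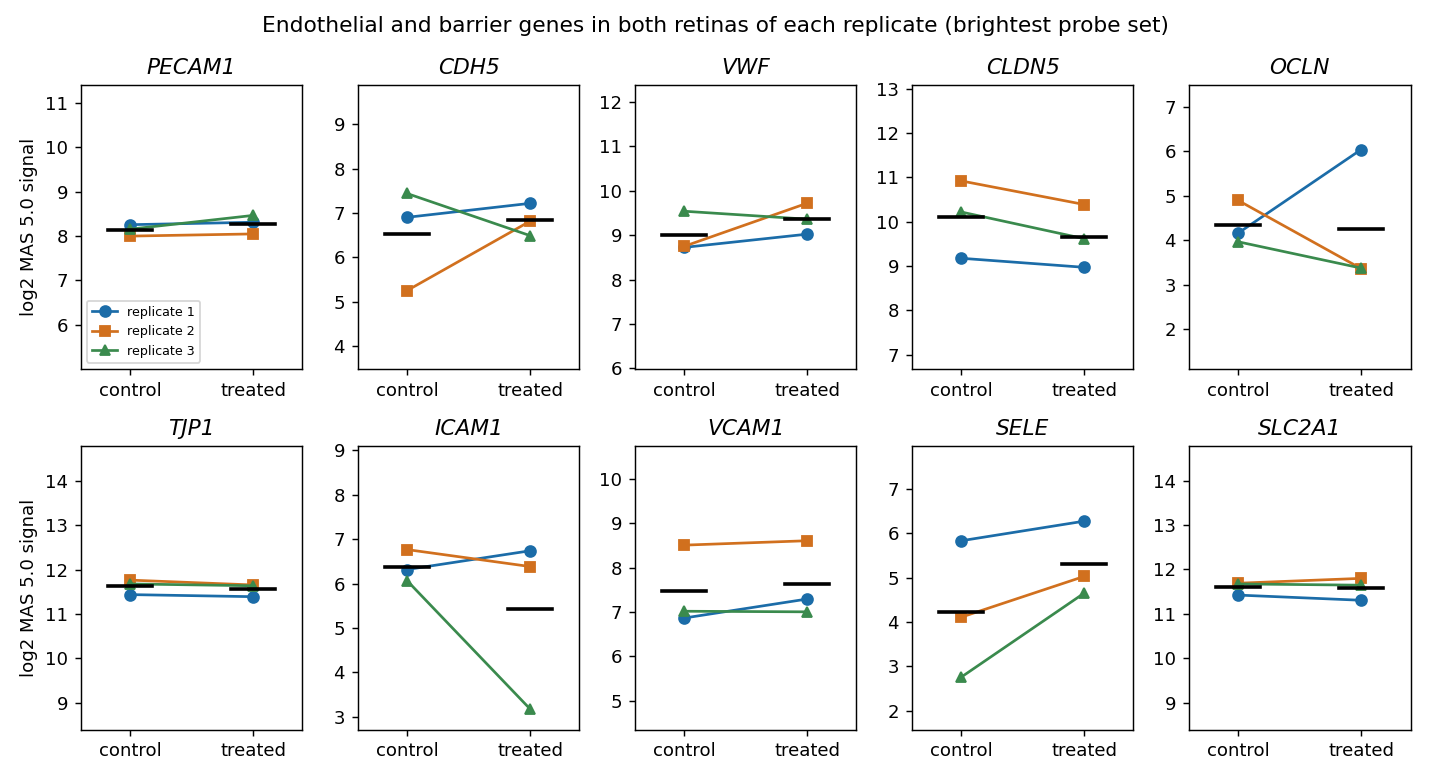
Log2 MAS 5.0 signal (y axis) of the brightest probe set of each of the 10 genes in control and treated retinas (x axis), with a line joining both retinas of a replicate, a black bar at each group mean, and the same height of y axis in every panel. The lines of CLDN5 fall in 3 of 3 pairs and those of SELE rise in 3 of 3, those of TJP1 and SLC2A1 are nearly level, and the treated retina of replicate 3 lies far below the others for ICAM1.

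PECAM1, an adhesion molecule of endothelial cell contacts that platelets and leukocytes also carry, was nearly level. By its brightest probe set, the one with the highest mean signal, its log2 signal was 8.26, 8.0 and 8.16 in the control retinas of replicates 1 to 3 and 8.31, 8.05 and 8.47 in the treated retinas. Each treated retina lay above its own control, by 0.055, 0.049 and 0.31, but the groups overlapped. The fitted difference was 0.14 (SE 0.17, 95% interval −0.26 to 0.54, adjusted p = 0.879 from limma), and 0.052 without replicate 3. The other probe sets of PECAM1 went different ways: the next in signal stood at 0.25 (SE 0.21), higher in 3 of 3 pairs, and the dimmest at −0.31 (SE 0.40), lower in 3 of 3 pairs. Neither passed the test, and the direction of PECAM1 thus depends on the probe set.

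CDH5, the cadherin of endothelial adherens junctions, was measured with much less precision. Its brighter probe set read 6.90, 5.25 and 7.44 in the control retinas and 7.22, 6.82 and 6.49 in the treated retinas. The control retina of replicate 2 was the lowest of the 6, and the pairs disagreed in sign, with differences of 0.32, 1.57 and −0.95. The fitted difference of 0.31 (SE 0.49, 95% interval −0.82 to 1.44, adjusted p = 0.905) turned to −0.32 without replicate 2. Its dimmer probe set stood at −0.27 (SE 0.73).

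VWF, the clotting glycoprotein that endothelial cells and platelets store, read 8.72, 8.75 and 9.54 in the control retinas and 9.02, 9.72 and 9.36 in the treated retinas by its brighter probe set. The treated retina was the higher in pairs 1 and 2 and the lower in pair 3. The difference was 0.36 (SE 0.21, 95% interval −0.13 to 0.85, adjusted p = 0.754). It was 0.06 without replicate 2 and 0.64 without replicate 3, so pair 2, where the treated retina lay 0.97 above its control, carried most of it. The dimmer probe set of VWF, at −0.27 (SE 0.61), had the opposite sign.

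CLDN5, the main claudin of endothelial tight junctions, had the largest moderated statistic of the 16 probe sets. Its log2 signal was 9.18, 10.92 and 10.22 in the control retinas and 8.97, 10.39 and 9.62 in the treated retinas. Each treated retina was below its own control, by −0.20, −0.53 and −0.60 on the log2 scale. The groups still overlapped, because the replicates differed: both retinas of replicate 1 were below the other 4, and both of replicate 2 were above them. The fitted difference was −0.45 (SE 0.12, 95% interval −0.73 to −0.16), a signal 0.734 times that of the control retinas. Its unadjusted p was 0.00704 and its adjusted p 0.600 (limma), so it did not pass, and without the pairing the unadjusted p was 0.383. With the arrays centred on their medians the difference was −0.35 with an unadjusted p of 0.0529, and by the methods' t-test the unadjusted p was 0.068. One probe set represents CLDN5 on the array, so no other can be set beside it.

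OCLN, a membrane protein of tight junctions, was dim. Its signal was 4.16, 4.90 and 3.96 in the control retinas and 6.04, 3.36 and 3.37 in the treated retinas. The treated retina of replicate 1 was the highest of the 6 and the other treated retinas were the lowest, so the pairs disagreed by more than 3 log2 units. The difference of −0.082 had an SE of 0.86 and an interval from −2.09 to 1.93, and neither a rise nor a fall by a factor of 2 was detectable at this signal.

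TJP1, the scaffold protein ZO-1 that ties junction strands to actin, was among the most precisely measured members. By its brightest probe set the signal was 11.44, 11.76 and 11.68 in the control retinas and 11.39, 11.66 and 11.64 in the treated retinas. All 3 treated retinas lay slightly below their controls, by no more than 0.11. The difference was −0.066 (SE 0.087, adjusted p = 0.888), and its interval from −0.27 to 0.14 on the log2 scale limits the change to between 0.831 and 1.10 times the control signal. A dimmer probe set gave 0.041 (SE 0.18). On that probe set both retinas of replicate 1, at 8.77 and 8.73, stood about 1 log2 unit above the other 4, which lay between 7.59 and 7.79.

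ICAM1 binds the leukocyte integrin LFA-1. It read 6.32, 6.77 and 6.07 in the control retinas and 6.74, 6.38 and 3.17 in the treated retinas. The treated retina of replicate 3 lay about 3 log2 units below every other retina, and that array alone set the group difference. The difference was −0.95 (SE 0.67, 95% interval −2.51 to 0.60, adjusted p = 0.780), and without replicate 3 it was 0.020.

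VCAM1 binds the leukocyte integrin VLA-4. Its signal was 6.86, 8.51 and 7.02 in the control retinas and 7.29, 8.61 and 7.01 in the treated retinas. Both retinas of replicate 2 stood more than 1 log2 unit above the other 4, and the retinas of a pair differed by at most 0.43. The difference was 0.17 (SE 0.22, 95% interval −0.35 to 0.69, adjusted p = 0.887), and it was 0.043 without replicate 1 and 0.26 without replicate 3.

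SELE, or E-selectin, starts the rolling of leukocytes on activated endothelium. Its probe set was dim, at 5.83, 4.10 and 2.75 in the control retinas and 6.27, 5.03 and 4.65 in the treated retinas. Each treated retina was above its own control, by 0.44, 0.92 and 1.90, and the groups overlapped because the control retina of replicate 1 lay above the treated retinas of replicates 2 and 3. The difference of 1.09 was the largest in the upward direction among the 16 probe sets, but its SE was 0.66 and its interval ran from −0.44 to 2.61 (adjusted p = 0.754). Without replicate 3 it was 0.68. With log2 values below 5 set to 5 it shrank to 0.16, since 3 of the 6 readings lay under that level, where MAS 5.0 values scatter.

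SLC2A1, the glucose transporter GLUT1, was level by its bright probe set. That probe set read 11.42, 11.69 and 11.67 in the control retinas and 11.31, 11.80 and 11.65 in the treated retinas. The pairs differed by −0.12, 0.11 and −0.028. The difference was −0.012 (SE 0.092, adjusted p = 0.985), and its 95% interval, from −0.23 to 0.20 on the log2 scale, holds folds between 0.855 and 1.15. The second probe set was almost 6 log2 units dimmer and stood at −0.76 (SE 0.61), which came from the treated retina of replicate 3, at 3.35 against 5.40 in its control. Without replicate 3 it was −0.12.

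**Figure D2:**
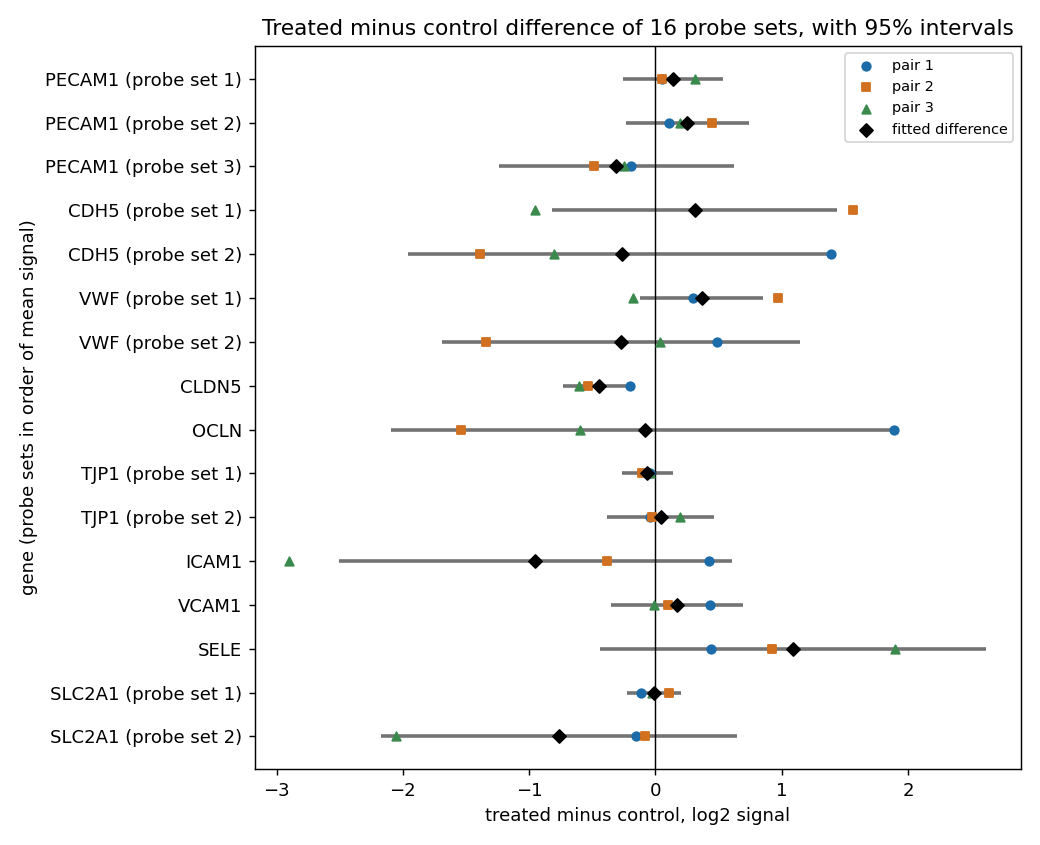
Treated minus control difference in log2 signal (x axis) for each of the 16 probe sets (y axis, in order of mean signal within a gene): black diamonds are the fitted differences, gray bars their 95% intervals from the paired limma fit, and colored symbols the 3 pairs. The interval of CLDN5 lies below 0 before adjustment for the number of probe sets and the other 15 cross 0; those of TJP1 and SLC2A1 by their brightest probe sets are the narrowest, and that of OCLN spans about 4 log2 units.

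The replicates differed from each other. The part of the animals and the part of the handling of each pair in this were not tested. For all 16 probe sets the means of both retinas of the 3 replicates covered a range wider than the fitted difference, as they did for 85.9% of all probe sets on the array. The fitted difference is an average over 3 pairs, however, and for 7 of the 16 the largest single pair difference exceeded the range of the replicate means, among them the brightest probe sets of PECAM1, CDH5, VWF, OCLN and ICAM1. The share of all probe sets for which that held was not counted, so the 7 of 16 cannot be set against the array. Both retinas of 1 replicate lay above or below the other 4 for 12 of the 16, beside 57.5% of all probe sets. For CLDN5 the replicate means were 9.07, 10.65 and 9.92, a range of 1.58 against a difference of −0.45. For VCAM1 they were 7.08, 8.56 and 7.01, and for SELE 6.05, 4.56 and 3.70. Replicate 1 was thus the lowest for CLDN5 and the highest for SELE, and replicate 2 the highest for VCAM1. The arrays also differed as a whole: the median log2 signal over all probe sets lay between 6.69 and 7.03 on 5 of them and at 6.44 on the treated array of replicate 2, which had 29.7% of its probe sets below a log2 signal of 5 against 22.6% to 25.9% on the others. The part of these scale differences in the members' values was not tested beyond the scalings given for them.

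Further genes of the vessel wall were read from lists of textbook markers, each gene by its brightest probe set. Over all 14132 genes read this way, an unadjusted p under 0.05 was reached by 5.02% in the upward and 3.01% in the downward direction (0.205% and 0.00708% after adjustment), and 55.5% had a difference above 0. Of 20 other endothelial genes measured, 15 lay above 0, with a median of 0.20, beside a median of 0.032 over all genes. Of these 20, 0 passed after adjustment, and at an unadjusted p under 0.05 there were 3 higher and 0 lower (4 and 0 by the methods' t-test). MCAM, an adhesion molecule of endothelial and mural cells, read 8.75, 9.14 and 9.26 in control and 9.45, 9.33 and 9.66 in treated retinas. Its groups did not overlap, its difference was 0.43 (SE 0.14, unadjusted p = 0.0171, adjusted p = 0.688 from limma), and 0.31 and 0.19 came from its dimmer probe sets. EMCN, a sialomucin of capillary and venous endothelium, stood at 0.40 (SE 0.17, adjusted p = 0.736), while dimmer probe sets of EMCN gave 0.37 and −0.25. MMRN2, a matrix protein that endothelial cells secrete, stood at 2.61 (SE 0.92, adjusted p = 0.716), but its 3 control readings of 0.75, 2.79 and 3.35 and 2 of its 3 treated readings were below a log2 signal of 5.

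CLEC14A, a lectin of endothelial cells, stood at 0.73 (adjusted p = 0.744), higher in 3 of 3 pairs, and its groups did not overlap. By contrast KDR, the main VEGF receptor, stood at −0.68, lower in 3 of 3 pairs (SE 0.39, adjusted p = 0.754). Of the 20 genes, 10 had the same sign in 3 of 3 pairs, beside 4639 of all 14132 genes. KDR alone of those 10 was lower. TIE1, an orphan receptor of the same cells, stood at −0.31, with pairs that disagreed at 0.36, −0.58 and −0.70. The summed signal of the 20 genes, in which THBD (thrombomodulin) makes up 30.5%, was 11.87, 11.86 and 11.92 in control and 12.02, 12.19 and 12.04 in treated retinas as log2 of the sum. Those groups did not overlap as deposited, while after quantile normalization and after centring the arrays on their medians they did, with every pair still higher. Without replicate 2 the median of the 20 genes was 0.089, with 13 above 0, and without replicate 1 it was 0.29, with 18 above 0 and 0 at an unadjusted p under 0.05.

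Markers of mural cells, which wrap the capillaries, were no more uniform. Of 9 measured, 4 lay above 0 and the median was −0.052 (0.045 with the arrays centred on their medians). TAGLN, an actin-binding protein of smooth muscle, stood at 0.45 (SE 0.14, unadjusted p = 0.0147, adjusted p = 0.676) and 0.32 on a dimmer probe set. KCNJ8 stood at 0.70 (SE 0.40, adjusted p = 0.753 from limma), higher in 3 of 3 pairs, and its groups did not overlap. The proteoglycan gene CSPG4 stood at −0.88 (adjusted p = 0.752), against 0.23 and 0.33 on dimmer probe sets. The CSPG4 pairs were −0.18, −0.33 and −2.13, so the treated retina of replicate 3, at 4.55, carried most of the −0.88. The summed level of the 9 was 11.45 to 11.95 in control and 11.81 to 12 in treated retinas. Of 4 genes of fenestrated or choroidal vessels, ESM1, a secreted proteoglycan of endothelial tips, stood at 2.52 (SE 0.86, adjusted p = 0.705), from control readings of 3.67, 1.48 and 1.61 to treated readings of 4.76, 5.04 and 4.5. Like MMRN2 it was dim in every control retina. The other 3, CA4, EHD4 and AQP1, lay between −0.24 and 0.046.

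Of 25 further genes of tight and adherens junctions, 11 lay above 0, with a median of −0.017 (0.080 with the arrays centred). At an unadjusted p under 0.05, 1 was higher and 1 lower, and 0 passed after adjustment. CLDN10, a claudin that forms ion pores, stood at −0.74 (SE 0.28, adjusted p = 0.727) and CLDN1, a sealing claudin of epithelia, at 1.23 (SE 0.52, adjusted p = 0.736). CLDN1 was dim in the control retinas, at 5.48, 4.90 and 4.57. Its dimmer probe set gave 1.28 (SE 0.66) from pairs of 1.34, 2.50 and −0.007, with a control reading of 2.49 in replicate 2. CLDN18, which the study itself names among its changed genes and which is therefore not independent of these samples, stood at −1.11, −0.59 and 1.66 by its 3 probe sets. Their SEs were 0.50, 0.73 and 0.76. The probe sets at −0.59 and 1.66 were dim, with control means of 4.44 and 3.04 and treated means of 3.85 and 4.71. CLDN7 stood at −1.68 (SE 0.85), with pairs of −0.73, −3.69 and −0.61. The control retina of replicate 2, at 6.58, carried most of that difference, and every other reading of CLDN7 was below a log2 signal of 5. Of the 10 junction genes with a signal at or above the median, 4 lay above 0. CTNNA1, the alpha-catenin of adherens junctions, and AFDN, an actin-binding junction protein, stood near 0, at −0.017 and −0.0069. The junctional adhesion molecule gene F11R stood at 0.28 and the cingulin relative CGNL1 at 0.24, both higher in 3 of 3 pairs, and CLDN4 at −0.30, lower in 3 of 3, and none of these passed the test.

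Among 12 further transporters of the barrier, 6 lay above 0 and 7 had the same sign in 3 of 3 pairs. SLC2A3, the neuronal glucose transporter GLUT3, read 9.08, 10.14 and 9.57 in control and 9.64, 10.75 and 9.83 in treated retinas. Each treated retina was above its control although the groups overlapped, and the difference was 0.47 (SE 0.12, unadjusted p = 0.0047, adjusted p = 0.536 from limma). Dimmer probe sets of SLC2A3 gave 0.61, 0.048 and 0.52. SLC16A1, the monocarboxylate transporter MCT1, stood at −0.37 (SE 0.13, adjusted p = 0.716), and −0.29, −0.47 and −0.74 came from dimmer probe sets. SLC6A6, the taurine transporter, stood at −0.55 (adjusted p = 0.748), and −0.92 and −0.54 on dimmer ones. MFSD2A, a lipid transporter that limits transcytosis in barrier endothelium, stood at −0.40 (SE 0.27), lower in 3 of 3 pairs, and the efflux pumps ABCB1 and ABCG2 at 0.15 and 0.24. SLC2A1 stood at −0.012 by its bright probe set, and the difference between SLC2A3 and SLC2A1 was not tested.

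Norrin and Wnt signals maintain the retinal barrier. Of 9 genes of this pathway 3 lay above 0, with a median of −0.092 (0.0053 with the arrays centred). LRP6, a Wnt co-receptor, stood at −0.29 (SE 0.097, unadjusted p = 0.0197, adjusted p = 0.70), and a further probe set gave −0.36. FZD4, the Norrin receptor, read 8.16, 8.57 and 8.20 in control and 7.99, 7.87 and 7.99 in treated retinas. Its groups did not overlap, and its difference was −0.36 (SE 0.19, adjusted p = 0.752), but a dimmer probe set had the opposite sign, at 0.087. LRP5, the co-receptor that acts with FZD4, stood at 0.50 (SE 0.37). Of 8 genes linked to hypoxia and glucose uptake, 1 besides SLC2A3 stood out at an unadjusted p under 0.05, the hexokinase gene HK2 at −0.44 (SE 0.10, adjusted p = 0.424), while the list's median was 0.080.

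**Figure D3:**
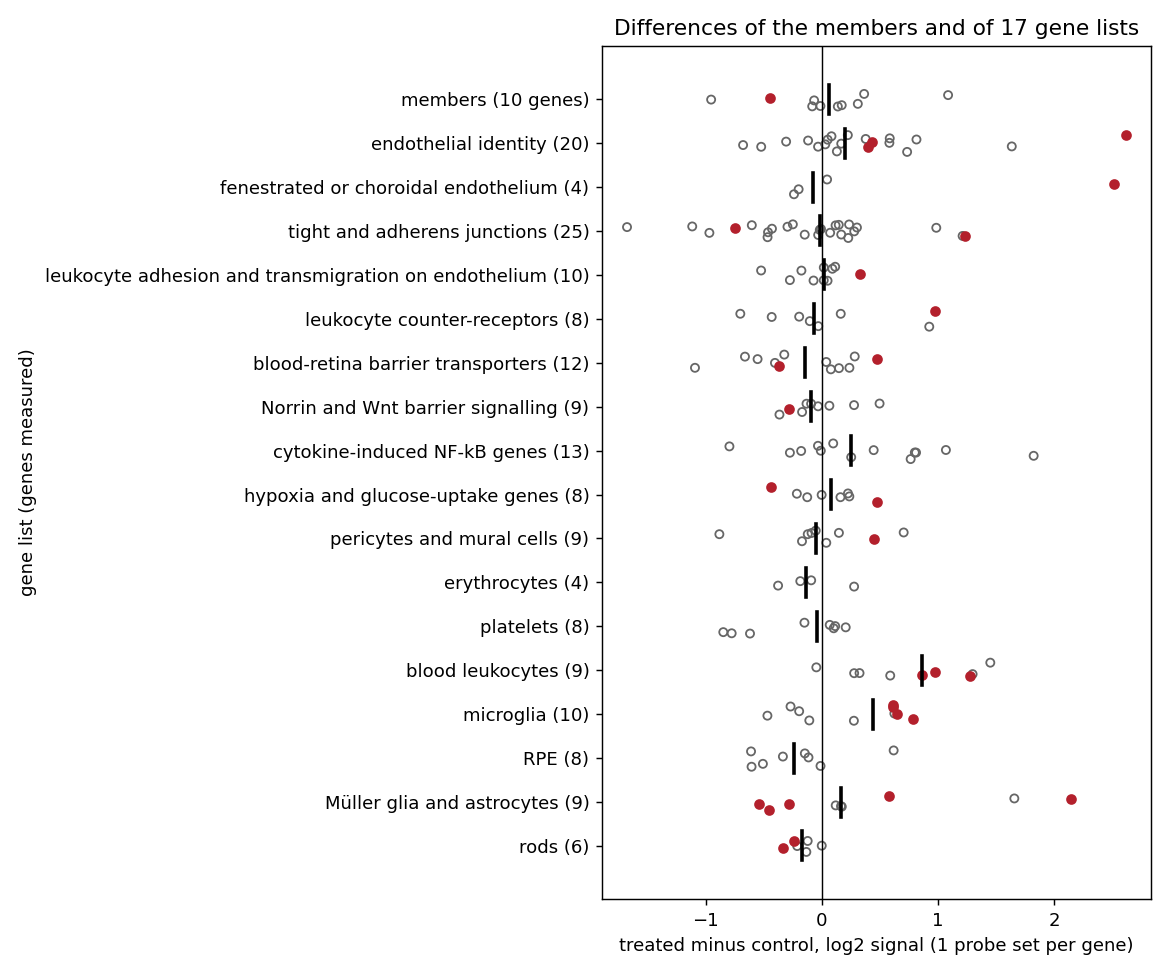
Treated minus control difference in log2 signal (x axis) of the 10 members and of the genes of 17 lists (y axis, genes measured in parentheses), with 1 point per gene by its brightest probe set, filled red at an unadjusted p under 0.05, and a black bar at each median. The members have a median of 0.063 and 1 filled point, CLDN5; the blood leukocyte and microglia lists have the highest medians, at 0.86 and 0.44, and GFAP, at 2.14, is the 1 gene of the lists that passed after adjustment.

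Adhesion genes of the vessel wall were then set beside those of leukocytes. Of 10 further genes for leukocyte adhesion to endothelium, 6 lay above 0, with a median of 0.017. CD99, a protein of leukocyte passage between endothelial cells, stood at 0.33 (SE 0.12, unadjusted p = 0.0242, adjusted p = 0.716), against 0.035 on a dimmer probe set. ICAM2, a constitutive relative of ICAM1, stood at 0.017, and SELP, the P-selectin gene, at −0.52 (SE 0.45).

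Of 9 markers of blood leukocytes, 8 lay above 0, with a median of 0.86. Of these markers 33.3% had a mean log2 signal below 5. With log2 values below 5 set to 5, 6 lay above 0, with a median of 0.71. LYZ, the lysozyme of myeloid cells, read 11.63, 11.30 and 10.80 in control and 13.50, 12.17 and 11.87 in treated retinas, so that all treated retinas lay above all controls. Its difference was 1.27 (SE 0.18, unadjusted p = 1.27e-04, adjusted p = 0.0745 from limma), just short of the threshold. PTPRC, the common leukocyte antigen CD45, stood at 0.97 (SE 0.34, adjusted p = 0.716), S100A9, a calcium-binding protein of neutrophils and monocytes, at 0.86 (SE 0.36) and S100A8, its partner, at 1.45 (SE 0.66). The pairs of S100A8 differed by 0.091, 3.56 and 0.70, so the control retina of replicate 2 carried most of that difference. An unadjusted p under 0.05 was reached by 3 of the 9 genes and 0 passed after adjustment. That count of 3 was 1 with log2 values below 5 set to 5 and 2 without the pairing. By the methods' t-test 0 reached an unadjusted p under 0.05, and 1 passed after adjustment with the arrays centred and without replicate 2 or 3. The summed level of the 9 genes, of which LYZ makes up 89.1%, was 11.05 to 11.90 in control and 12.06 to 13.61 in treated retinas.

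ITGB2, a subunit of the integrin that binds ICAM1, read 6.57, 5.65 and 6.46 in control and 7.38, 7.28 and 6.95 in treated retinas by its brightest probe set, with a difference of 0.98 (SE 0.35, adjusted p = 0.716). Its 3 other probe sets lay between −0.33 and 0.034. The dimmest had control and treated means of 1.90 and 1.93 and the next dimmest 3.62 and 3.29. The pairs of the remaining probe set disagreed, at 0.23, −2.12 and 1.80. SELPLG, the selectin ligand PSGL-1, stood at −0.70 (SE 0.31) and at −0.50 by its other probe set. Of the 8 counter-receptors measured, 3 lay above 0, with a median of −0.067 (0.030 with the arrays centred). Microglial genes stood at a median of 0.44, with 6 of 10 above 0 and 4 at an unadjusted p under 0.05: C1QA and C1QB, chains of complement C1q, at 0.61 and 0.62, TYROBP, a signalling adaptor, at 0.64 and AIF1, a calcium-binding protein, at 0.78. That count was 2 by the methods' t-test, without the pairing and without replicate 2, where the median was 0.23. It was also 2 with a variance prior without trend and with log2 values below 5 set to 5. The summed level of the microglial genes was 11.22 to 11.39 in control and 11.47 to 11.65 in treated retinas. Of 13 genes that NF-kB induces after cytokines, 8 lay above 0, with a median of 0.25 and 0 at an unadjusted p under 0.05 (1 by the methods' t-test). The median was 0.12 without replicate 1 or replicate 2 and 0.46 without replicate 3, and 2 genes reached that p with the arrays centred or without replicate 2. TNF stood at 1.82 (SE 0.81, adjusted p = 0.748) and RELB, an NF-kB subunit, at 1.07 (SE 0.49). TNF was dim, with 5 of its 6 readings below a log2 signal of 5, and the pairs of RELB differed by 2.62, 0.51 and 0.078, so that the control retina of replicate 1 carried most of its difference. PECAM1 is also made by leukocytes and platelets, and the part of leukocyte RNA in its values was not tested.

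Markers of other cells were read beside CLDN5, TJP1, OCLN and SLC2A1. In Müller glia and astrocytes, which ensheathe the retinal vessels, the filament gene GFAP rose from 10.67, 11.21 and 10.71 in control to 12.94, 14.03 and 12.07 in treated retinas (difference 2.14, SE 0.23, adjusted p = 0.0303 from limma), although a dimmer probe set stood at 0.099. No glial gene passed after adjustment without the pairing, without replicate 1 or by the methods' t-test, where 2 were higher at an unadjusted p under 0.05. The glutamate transporter gene SLC1A3 stood at 0.58 (SE 0.098, adjusted p = 0.164), while the potassium channel gene KCNJ10, at −0.54 (SE 0.11, adjusted p = 0.339), the retinoid carrier gene RLBP1, at −0.45 (SE 0.086, adjusted p = 0.270), and the glutamine synthetase gene GLUL, at −0.28 (SE 0.099, adjusted p = 0.716), stood lower in 3 of 3 pairs, as CLDN5 did. Of these 9 glial genes 6 lay above 0, and their summed level was 15.85 to 16.199 in control and 15.91 to 16.46 in treated retinas. Their part in the CLDN5 values was not tested.

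Of 8 RPE genes, 1 lay above 0 and the median was −0.24, with 0 at an unadjusted p under 0.05 and a summed level of 13.02 to 13.56 in control and 12.78 to 13.33 in treated retinas. Without replicate 1 the RPE list had 5 genes above 0 and a median of 0.016, and without replicate 2 it had 0 above 0 and 3 lower after adjustment. TYRP1, an enzyme of pigment synthesis, read above 10 in both group means (10.41 and 10.08), so a pigment cell transcript was measured in retinas dissected without that layer. The part of RPE RNA in the values of TJP1, OCLN and SLC2A1 was not tested. The 6 rod genes, among them SAG at 15.49 in control retinas, were bright, and 0 of the 6 lay above 0, with a median of −0.17 (−0.075 with the arrays centred). Of 4 erythrocyte genes 1 lay above 0, HBB stood at 0.28 (SE 0.30), and the summed level was 8.82 to 9.19 in control and 8.25 to 9.80 in treated retinas. Platelet genes, 8 in all, had a median of −0.040 and a summed level of 8.67 to 8.97 in control and 8.46 to 9.25 in treated retinas.

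The genes whose levels over the 6 retinas were most like those of CLDN5, VWF and SELE, the 3 members with the largest moderated statistics by their brightest probe sets, were sought among 9680 genes with a signal at or above the median. Likeness was the root mean square difference of the log2 values after each gene was centred on its own mean. PLA2G5, a secreted phospholipase, was closest to CLDN5 at 0.14, and read 9.23, 10.61 and 9.96 in control and 8.77, 10.32 and 9.63 in treated retinas. HYDIN, a protein of motile cilia, followed at 0.18, and then KCNJ10 at 0.18, which read 10.002, 11.36 and 10.63 in control and 9.40, 10.68 and 10.29 in treated retinas. All 3 had replicate 1 lowest and replicate 2 highest and stood lower in each treated retina than in its control. This follows from their choice by likeness to CLDN5 over the same values. Closest to VWF were MAP2K2, a kinase of the MAPK cascade, at 0.081, the cilium gene B9D1 at 0.097 and the cytokine gene MIF at 0.10. For SELE no gene came nearer than GPAT3, an enzyme of lipid synthesis, at 0.43, followed by SHISA2 at 0.44 and GTF2F1 at 0.48. With 6 retinas of 3 animals and 9680 genes, close matches are to be had for many patterns, and these distances are a description with no test.

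**Figure D4:**
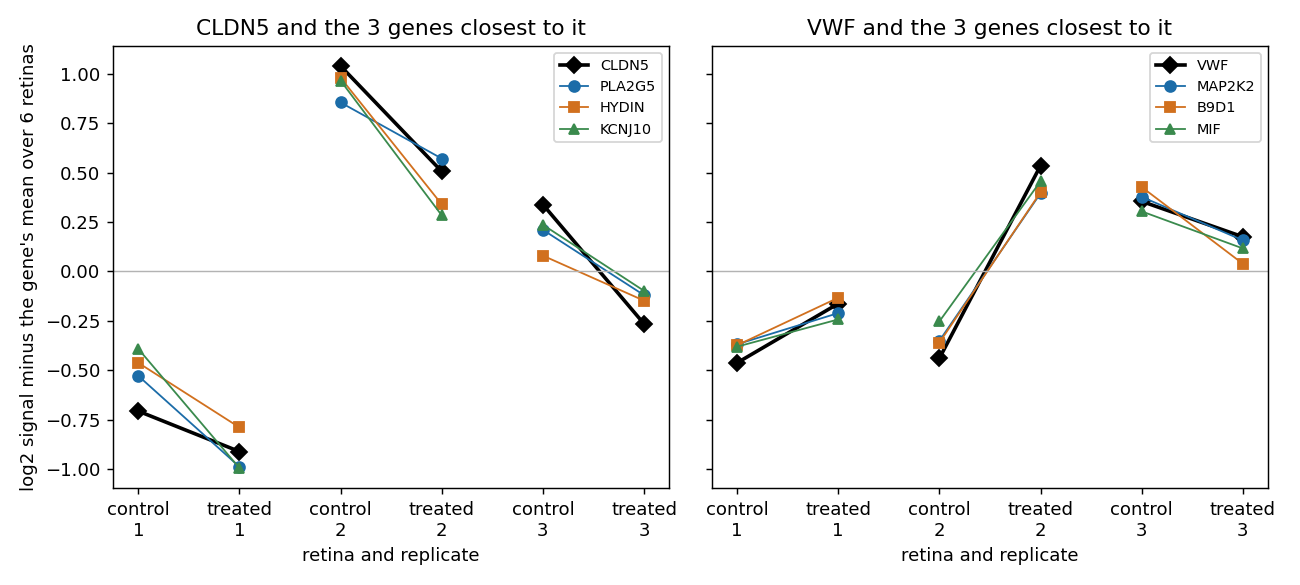
Log2 signal minus the gene's own mean over the 6 retinas (y axis) in the control and treated retina of each replicate (x axis), for CLDN5 (left) and VWF (right), black diamonds, and the 3 genes closest to each, colored symbols, with lines joining both retinas of a replicate. CLDN5 and its closest genes fall within each pair and lie lowest in replicate 1, and VWF and its closest genes rise in pairs 1 and 2 and fall in pair 3. The closest genes were chosen for this likeness.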

How the data were processed

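The authors deposited log2 values of MAS 5.0 signals, computed in GeneSpring GX, 1 array per retina, and no detection calls were used. MAS 5.0 scales each array to a common mean: with 2% of values trimmed at each end the mean signal was 505.3 to 505.8, and the medians varied between arrays.

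Treated minus control differences were fitted for all 52024 probe sets in R 4.3.3 by limma 3.58.1, using lmFit with the replicate number as a block, an intensity trend in eBayes and Benjamini-Hochberg adjustment; the 95% intervals use the moderated SE and degrees of freedom. The pairing follows the paired test of the study's methods on both retinas of a monkey. When each array's deviation from its group mean was compared across groups, same-numbered retinas correlated at 0.357, 0.137 and 0.161. Retinas of unlike number correlated at −0.243 to 0.104, the highest being treated replicate 2 with control replicate 3. The matched values of replicates 2 and 3 thus lay little above that. The sample titles give replicate numbers and do not state that equal numbers are the same monkey. Members were matched by platform symbol. List genes were named through gene identifiers in the reference table of the NCBI macaque assembly supplied, which held 98.6% of the probe sets with 1 symbol. Lists name 228 genes, of which 169 were read and the rest were not analysed here. No genome positions or sequences were used.

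Members and lists were chosen with earlier results of these data known. The text names all members, in each list mainly the genes with the largest moderated statistics (up to 4) or passing the adjusted threshold, and the 3 genes nearest to each of 3 members. KDR, TIE1, THBD, MFSD2A, ABCB1, ABCG2, CTNNA1, AFDN, F11R, CGNL1, CLDN4, ICAM2 and GLUL fall outside that rule and were named after their values were seen. The scripts were tested on simulated data. Alternatives were no pairing, quantile normalization, centring on array medians, a variance prior without trend, bright probe sets alone, a floor at a log2 of 5, the methods' paired t-test and leaving out each replicate. Python 3.11.15 and matplotlib 3.10.9 made the figures.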

Additional observations from a re-analysis of the deposited data

How the results depend on the processing

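In every alternative run, 0 of the 10 member genes passed after adjustment in either direction. At an unadjusted p under 0.05, 0 members were higher and 1 lower (CLDN5). That became 1 higher with a variance prior without trend (SELE), and 0 lower without the pairing (no replicate block), with arrays centred on their medians, with the prior without trend and by the methods' t-test. Leaving out a replicate gave 0 to 1 higher (VWF, at 0.64, without replicate 3) and 1 lower each time. Of 152 member differences under alternatives, 138 kept their direction and 14 changed sign, all of values whose interval held 0. None moved across the adjusted threshold, which no member probe set passed in any run. The runs without the pairing, with the prior without trend, with bright probe sets alone and by the methods' t-test leave each difference as it was. Their signs could therefore not change. OCLN became 0.042 with quantile normalization, 0.015 with centring and 0.35 with the floor, the dimmer CDH5 probe set 0.093 with the floor, and TJP1 and SLC2A1, by their brightest probe sets, 0.031 and 0.085 with centring. Leaving out a replicate gave −0.32 to 0.94 and −1.10 to 0.29 for the CDH5 probe sets, −0.65 to 0.26 for the dimmer VWF probe set, −1.07 to 0.65 for OCLN, −0.035 to 0.081 for the dimmer TJP1 probe set, −1.64 to 0.020 for ICAM1 and −0.073 to 0.041 for the bright SLC2A1 probe set. CLDN5 lay between −0.57 and −0.37.

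Of the 169 list genes, 1 was higher (GFAP) and 0 lower after adjustment. Without the pairing, with the prior without trend, with the floor and by the methods' t-test it was 0 higher, with centring 2. Leaving out a replicate gave 0 (without replicate 1) to 3 higher and 0 to 5 lower. At an unadjusted p under 0.05, 18 list genes were higher and 9 lower. Without the pairing these were 11 and 0, with centring 2 were lower, and with the prior without trend 4 were lower. Leaving out a replicate gave 12 to 15 higher and 3 to 12 lower. The causes of these shifts were not tested. Leaving out a replicate also turned list medians near 0: they ran from 0.015 to 0.076 for junctions, −0.032 to 0.050 for mural cells, −0.14 to 0.086 for fenestrated vessels, −0.00080 to 0.11 for leukocyte adhesion, −0.23 to 0.023 for counter-receptors, −0.029 to 0.073 for hypoxia and glucose uptake, −0.28 to 0.34 for erythrocytes and −0.33 to 0.15 for platelets. With 3 pairs and dim probe sets, 5 of the 16 member intervals cannot tell a doubling from no change, and 6 cannot tell a halving of the signal.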
